A study of Mus musculus with 47 samples.

Results

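The 38 genes described here encode the machinery of DNA replication and of the cell cycle, and were chosen by name from the 17754 genes of the expression table. All 38 were found. They comprise 10 DNA replication genes (Mcm2 to Mcm7, Mcm10, Pcna, Cdc6 and Cdt1), 3 genes of nucleotide synthesis (Rrm1, Rrm2 and Tyms), 6 G1 cyclin and E2F genes (Ccnd1, Ccnd2, Ccnd3, Ccne1, Ccne2 and E2f1) and 4 cyclin-dependent kinases (Cdk1, Cdk2, Cdk4 and Cdk6). A further 12 act in G2 phase and mitosis (Ccna2, Ccnb1, Ccnb2, Cdc20, Mki67, Top2a, Aurka, Aurkb, Bub1, Bub1b, Plk1 and Birc5), and 3 inhibit cyclin-dependent kinases (Cdkn1a, Cdkn1b and Cdkn2c). RNA-seq was done on 47 libraries of mouse T-cell precursors, 19 of them labelled as knockout of Bcl11b, a transcription factor of T-lineage commitment.

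The largest groups were fetal liver cells of embryonic day 13.5. Cells of floxed Bcl11b embryos on a C57BL/6 background and of Bcl11b-intact C57BL/6 embryos, some with a ROSA26R-YFP reporter, were all given a Cre retrovirus and grown on OP9 stroma presenting the Notch ligand DL1 or DL4, with Flt3L and IL-7. DL1 stroma carried 8 knockout and 8 control libraries and DL4 stroma 6 and 3, which makes 14 knockouts and 11 controls, and IL-7 was reduced in 7 of these 25. By the protocol, knockouts were sorted as DN2a (high Kit) and controls as DN2b (intermediate Kit), so over most libraries genotype goes with sorted phenotype. Titles depart from this: of 9 knockout and control pairs matched for date, 4 give both libraries the same stage, DN2 in 3 pairs (the same 2 cultures on 3 days) and DN2b in 1. Bcl11b-intact fetal liver cells with no Cre listed were sorted on DL1 as DN2a (4 libraries) or DN2b (2 libraries, 1 of them titled DN3), and 2 more of each were kept for their last 12 hours in 1 uM of a gamma-secretase inhibitor (GSI), a drug class that stops Notch activation. In 3 cultures of day 12 on DL1, Cre-treated cells received a second retrovirus 36 hours before harvest: empty vector in 1 control and 1 knockout, and Bcl11b in 1 knockout. Thymic DN3 cells with Bcl11b came directly from mice in 3 libraries (1 with LckCre, 1 with CreERT2, 1 with CreERT2 and floxed Bcl11b without deletion). Thymic DN3 cells with CreERT2, given 100 nM 4-OH tamoxifen and grown on DL4 for 3 or 4 days, gave 2 controls and 1 knockout. Of these, the knockout is the 1 labelled with floxed Bcl11b. The remaining libraries were 1 thymic DN2 knockout made by LckCre and 1 knockout and 1 control DN2 culture from tamoxifen-treated CreERT2 bone marrow. The marrow knockout had floxed and its control wild-type Bcl11b, and both were grown on DL4 stroma.

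Before a cell copies its DNA, Cdc6 and Cdt1 load the Mcm2-7 helicase onto replication origins. D cyclins with Cdk4 or Cdk6 release E2F factors, which switch on genes of replication and nucleotide synthesis, while mitotic genes rise later and often carry CCAAT boxes and a cell cycle homology region (CHR) at their promoters. Thymocyte precursors divide repeatedly as they pass through the DN2 stages towards DN3. In bulk libraries, fewer dividing cells and less RNA per dividing cell cannot be told apart.

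RefSeq promoter windows (GRCm38.p6, 250 bases before to 50 after the start) matched 32 of the 38 genes. They were searched on both strands, counting overlapping matches, for TTTGAA (a CHR core), CCAAT, and TTGGCGC or TTCCCGC (letters of E2F sites). The CHR core was in 7 of 10 matched mitosis genes and 1 of 9 DNA replication genes, against 18.1% of 27025 genes with a window. CCAAT was in 9 of 10 mitosis and 7 of 9 replication genes, against 37.9% of all, and the E2F letters were in 2 of 10 and 6 of 9, against 6.93%. The bases before the start are shown for Cdc20 and Ccnb2, which were among the genes called lower after a second transduction. They are also shown for Cdk1, which was higher in DN2a cells, and for Mcm6, a replication gene called in neither comparison. Capitals mark the motifs on either strand.
Cdc20, chr4:118437344-118437593, minus strand: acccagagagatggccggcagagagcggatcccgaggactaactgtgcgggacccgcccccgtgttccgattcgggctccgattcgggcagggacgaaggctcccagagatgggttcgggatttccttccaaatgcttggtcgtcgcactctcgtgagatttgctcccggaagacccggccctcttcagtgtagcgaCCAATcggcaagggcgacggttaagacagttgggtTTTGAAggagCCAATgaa
Ccnb2, chr9:70421555-70421804, minus strand: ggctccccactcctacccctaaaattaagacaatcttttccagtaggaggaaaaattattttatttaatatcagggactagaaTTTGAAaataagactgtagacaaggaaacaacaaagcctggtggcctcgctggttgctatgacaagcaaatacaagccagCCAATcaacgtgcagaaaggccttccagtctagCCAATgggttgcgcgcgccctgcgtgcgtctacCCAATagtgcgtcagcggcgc
Cdk1, chr10:69352913-69353162, minus strand: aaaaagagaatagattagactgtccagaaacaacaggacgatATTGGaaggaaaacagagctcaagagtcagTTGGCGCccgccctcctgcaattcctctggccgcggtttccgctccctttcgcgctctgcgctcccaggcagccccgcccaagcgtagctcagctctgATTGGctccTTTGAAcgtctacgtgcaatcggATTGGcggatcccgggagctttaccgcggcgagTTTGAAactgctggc
Mcm6, chr1:128359706-128359955, minus strand: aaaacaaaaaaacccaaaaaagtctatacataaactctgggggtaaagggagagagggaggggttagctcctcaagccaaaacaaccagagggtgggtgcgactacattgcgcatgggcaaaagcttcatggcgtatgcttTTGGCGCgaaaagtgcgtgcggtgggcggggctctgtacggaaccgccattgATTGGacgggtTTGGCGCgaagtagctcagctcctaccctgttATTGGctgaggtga
Cdc20 and Ccnb2 have a CHR core and CCAAT boxes with no E2F letters here, Cdk1 has all 3 motifs, and Mcm6 has CCAAT boxes and E2F letters with no CHR core. Ccnb2 has a second CHR core within the 50 bases after the start, which are not shown. Ccnb1 and Birc5, also called lower after a second transduction, have no CHR core in their whole windows. Ccnb1 has CCAAT boxes and E2F letters, and Birc5 has none of the 3 motifs. A match describes these letters and measures no binding.

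Values are FPKM (fragments scaled to transcript length and library size), batch-adjusted by the authors. Totals ran from 581205 to 1005744 FPKM per library, and sequencing depth is unknown. Bcl11b stood at 8.77 to 37.9 FPKM (median 25.1) in the 14 fetal liver knockouts and 16.9 to 84.4 (median 54.5) in the 11 controls, so the ranges overlapped. It was no lower in the bone marrow library labelled knockout (45.0 FPKM) than in its control (44.9). FPKM of the whole gene does not measure the deleted part. All 8 T lineage markers were present, summing to 982 to 2055 FPKM in fetal liver knockouts and 2052 to 3643 in controls. P-values here measure the spread between libraries, which may be partly technical, and by their titles 6 DL1 libraries are 2 cultures sampled on 3 days.

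**Figure D1:**
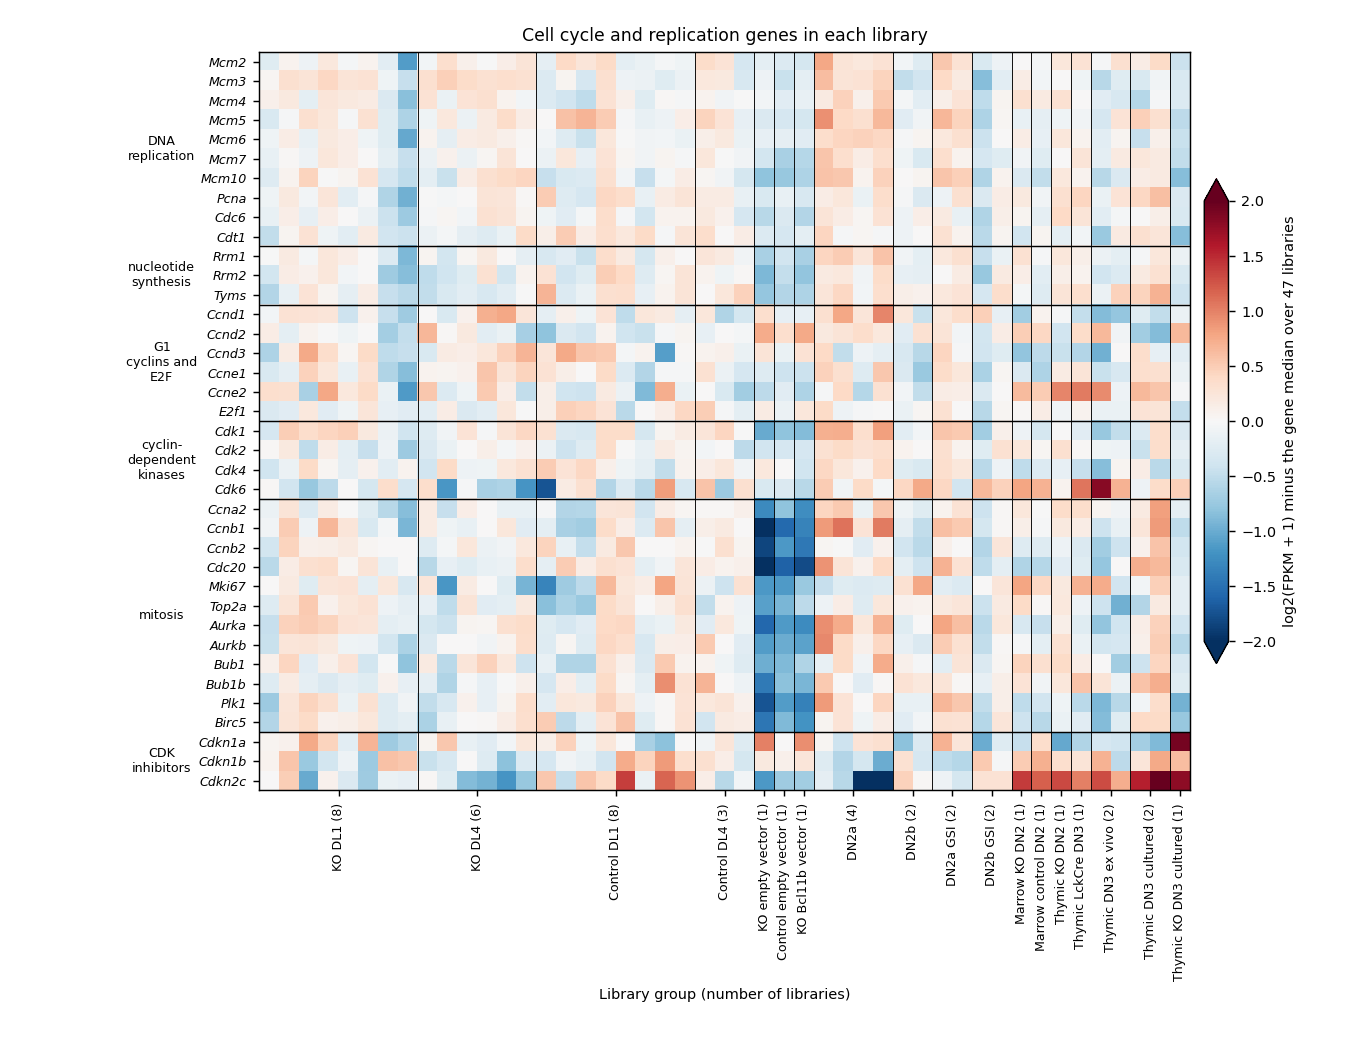
Level of each of the 38 genes (vertical axis, by role) in each of the 47 libraries (horizontal axis, by group), as log2(FPKM + 1) minus the gene's median over all libraries (colour). The 3 vector-transduced libraries are low over the mitosis genes, and Cdkn2c has the widest spread.

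FPKM is scaled to transcript length, so levels can be compared between genes. Cdk4 stood at 545 ± 116 FPKM (SD, n = 47) and Cdk6, the other kinase of D cyclins, at 52.8 ± 26.1. Of the D cyclins, Ccnd3 stood at 207 ± 61.6 FPKM, Ccnd2 at 42.3 ± 12.2 and Ccnd1 at 1.50 ± 0.758. The order of the D cyclins held in every library: the highest Ccnd1 value was 3.79 FPKM and the lowest Ccnd2 value 21.9, and the highest Ccnd2 value was 69.8 and the lowest Ccnd3 value 94.9. E2f1, an activator E2F, varied least of the 38 genes, at 23.5 ± 4.26 FPKM (SD 0.25 on the log2(FPKM + 1) scale). Mcm5 stood at 159.7 ± 40.8 FPKM, Top2a, which untangles DNA, at 219.7 ± 54.9, and Mki67, the gene of the Ki-67 proliferation antigen, at 68.7 ± 24.2. Cdkn2c, which encodes the Cdk4 and Cdk6 inhibitor p18, varied most (SD 0.98), from 0.217 FPKM in the DN2a library of day 4.5 to 34.0 in a cultured thymic DN3 control. Next came Cdk6 (SD 0.65), the mitotic cyclin gene Ccnb1 (0.62) and Cdc20, whose protein activates the anaphase-promoting complex (0.60). Of the other inhibitors, Cdkn1a, which encodes p21, stood at 45.6 ± 23.4 FPKM and Cdkn1b, which encodes p27, at 23.2 ± 7.97. Ccnb1 stood at 79.8 ± 30.8 FPKM. The knockout library with empty vector held the lowest value of 14 of the 38 genes, and DN2a replicate 1 the highest value of 9. Such counts were not made over all genes.

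Few of these genes differed between Bcl11b knockout and control cultures. With stroma and IL-7 in the model, 3 of the 38 were lower in knockouts and 0 higher (limma on log2(FPKM + 1), adjusted p under 0.05), against 7.1% lower and 9.8% higher of 12678 genes. At an unadjusted p under 0.05, 4 were lower and 1 higher, against 1489 and 2113 of 12678 genes. The median difference was -0.06 on the log2 scale, against 0.04 over all genes. The 3 lower genes were an inhibitor, a gene of nucleotide synthesis and a licensing factor.

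Cdkn2c ranged from 2.25 to 9.38 FPKM (median 5.16) in 14 knockouts and from 4.05 to 18.2 FPKM (median 8.62) in 11 controls. The ranges overlapped, with the lowest values in knockouts. The difference was -0.67 ± 0.20 (SE, limma, adjusted p = 0.0195), and it was lower in the knockout in 9 of 9 pairs of libraries matched for date. Tyms, the thymidylate synthase gene, ranged from 45.5 to 83.1 FPKM (median 59.5) in knockouts and from 56.7 to 111 FPKM (median 80.5) in controls. It differed by -0.38 ± 0.11 (SE, limma, adjusted p = 0.0203) and was lower in 9 of 9 pairs, again with overlapping ranges. Cdt1 ranged from 39.7 to 73.6 FPKM (median 51.1) in knockouts and from 54.9 to 79.9 FPKM (median 65.0) in controls. It differed by -0.33 ± 0.10 (SE, limma, adjusted p = 0.0219) and was lower in 8 of 9 pairs. When libraries were scaled to equal FPKM totals none of the 3 passed (limma, adjusted p = 0.0539 for Cdkn2c, 0.0699 for Tyms and 0.0880 for Cdt1), and in standard IL-7 alone Cdkn2c was the 1 that passed. In the 4 date-matched pairs titled with the same stage, all 3 genes were lower in the knockout in 4 of 4. Of the uncalled genes, Pcna and Cdkn1b were also lower in 4 of 4, and Cdk4 and Cdkn1a in 0 of 4. All of these pairs were in the fit that picked the 3 genes, so the pair counts, also those of 9, are no separate support. Of the 4 pairs, 3 are the same 2 cultures on 3 days. A fit of these 8 libraries, added after the values were seen, called none of the 38 (limma; Cdkn2c -1.03, adjusted p = 0.216; Tyms -0.22, adjusted p = 0.820; Cdt1 -0.33, adjusted p = 0.628). With the date-matched pairs as a block Cdt1 did not pass (limma, adjusted p = 0.0773).

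The remaining 35 genes did not pass, which does not show that they were equal. The largest differences among them were those of Bub1b, a spindle checkpoint gene (-0.29, limma, adjusted p = 0.110), and Cdkn1b (-0.27, limma, adjusted p = 0.333). The helicase gene Mcm3 was next, at 178 ± 26.1 FPKM in knockouts and 145 ± 24.1 in controls (0.26, limma, adjusted p = 0.0698). It passed without control DL1 replicate 4 (limma, adjusted p = 0.0253) or knockout DL1 replicate 8 (limma, adjusted p = 0.0113). Ccnd3 stood at 228 ± 65.8 FPKM (SD, n = 14) in knockouts and 228 ± 66.6 (n = 11) in controls, and Cdk4 at 554 ± 98.9 and 588 ± 113. Ccnb1 stood at 77.9 ± 20.2 and 75.1 ± 20.0 FPKM, and Mki67 at 64.5 ± 16.8 and 69.9 ± 27.7. These spreads overlapped widely.

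**Figure D2:**
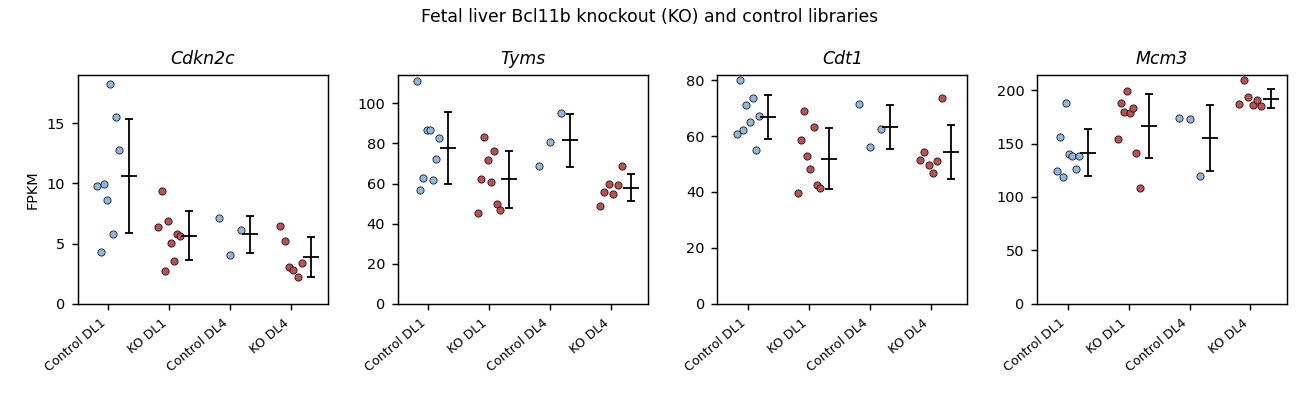
FPKM of Cdkn2c, Tyms, Cdt1 and Mcm3 (vertical axes) in fetal liver control and knockout libraries on DL1 or DL4 stroma (horizontal axis), 1 point per library, with mean and SD. Cdkn2c, Tyms and Cdt1 lie lower in knockouts with overlapping points.

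Other cell cycle genes gave 8 lower calls and 0 higher of 112 in the same fit. The lower share, 7.14%, was near that of all genes (7.1%). Of 40 further replication genes 2 fell, Tk1, the thymidine kinase gene (mean 65.0 FPKM in knockouts, 94.1 in controls, -0.54, limma, adjusted p = 0.00840), and Uhrf1 (-0.35, limma, adjusted p = 0.0269). Of 43 further mitosis genes 1 fell, the kinase gene Melk (-0.41, limma, adjusted p = 0.0102). Of 29 tested regulators 5 fell. The largest was E2f2, an activator E2F (mean 9.07 FPKM in knockouts, 23.3 in controls, -1.25, limma, adjusted p = 1.8e-05), followed by E2f7 (-0.56, limma, adjusted p = 0.0176).

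Between normal stages, Mcm3, Rrm1, Cdk1 and Ccnb1 were higher and Mki67 lower in DN2a than in DN2b cells, and these calls rest on few libraries. Of the 38 genes 4 were higher and 1 lower in DN2a (limma, adjusted p under 0.05), against 4.23% higher and 9.23% lower of 13364 genes. At an unadjusted p under 0.05, 16 were higher and 2 lower, against 1639 and 2791 of 13364 genes. The median was 0.39, against -0.07 over all genes, and differences were positive for 10 of 10 DNA replication genes and 9 of 12 mitosis genes. Of these, 1 replication gene passed, and 1 mitosis gene passed as higher and 1 as lower. Every DN2a library was above both DN2b libraries for 7 of 10 replication and 6 of 12 mitosis genes. The share of all genes apart in this way was not counted, so these counts have no background.

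Mcm3 stood at 230.5, 179.9, 185 and 204 FPKM in the 4 DN2a libraries and 107 and 115 in the 2 DN2b libraries. The groups were apart, with a difference of 0.84 ± 0.16 (SE, limma, adjusted p = 0.0243). Rrm1, a ribonucleotide reductase subunit, stood at 129, 136, 112 and 141 FPKM in DN2a and 90.0 and 82.5 in DN2b, also apart (0.58, limma, adjusted p = 0.0498). Cdk1, the kinase that drives mitosis, stood at 179, 181, 139 and 193 FPKM in DN2a and 94.9 and 105 in DN2b (0.78, limma, adjusted p = 0.0336). Its partner Ccnb1 stood at 138, 161, 92.0 and 158 FPKM in DN2a and 66.6 and 53.8 in DN2b, a difference of 1.15 ± 0.25 (SE, limma, adjusted p = 0.0316). For both, every DN2a library was above both DN2b libraries. Mki67 was the 1 lower gene, at 48.7, 56.8, 55.7 and 56.1 FPKM in DN2a and 84.0 and 116 in DN2b, with no overlap (-0.85, limma, adjusted p = 0.0289). Cdkn2c stood at 5.52, 4.07, 0.785 and 0.217 FPKM in DN2a and 9.23 and 6.51 in DN2b and did not pass (-1.59, limma, adjusted p = 0.148). Its lowest values were those of the DN2a libraries of days 8.5 and 4.5 from the second of the 3 title years. Ccne1, whose cyclin starts S phase, did not pass either (0.78, limma, adjusted p = 0.0955).

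No gene was called in either direction without DN2a replicate 4 (day 4.5) or either DN2b library, and 1 was called higher without DN2a replicate 1 or 2. With the 2 date-matched pairs as a block, 1 gene was higher and 0 lower. By their titles, these DN2a libraries each combine 2 dates, so their match to DN2b is partial. The 5 measured myeloid markers summed to 48.7 to 66.1 FPKM in DN2a and 7.90 to 18.6 in DN2b, and T lineage markers to 749.6 to 1222 and 2289 to 3129. Erythroid markers summed to 4.91 to 12.4 FPKM in DN2a and 2.45 to 2.83 in DN2b, and the 1 of them tested was called higher in DN2a (1.94). The part of these markers' cells in the differences was not tested. Of 112 other cell cycle genes 5.36% were called higher, against 4.23% of all genes. Of 40 further replication genes 3 rose and 0 fell, led by Fen1, which trims Okazaki fragments (0.88, limma, adjusted p = 0.0393), and Rfc2 (0.76, limma, adjusted p = 0.0353). Of 43 further mitosis genes 1 rose, Cks1b, which encodes a Cdk-binding subunit (1.12, limma, adjusted p = 0.0214). Of 29 regulators 2 rose, Wee1, an inhibitory kinase of Cdk1 (0.86, limma, adjusted p = 0.0215), and Tfdp1, an E2F partner (0.82, limma, adjusted p = 0.0322).

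**Figure D3:**
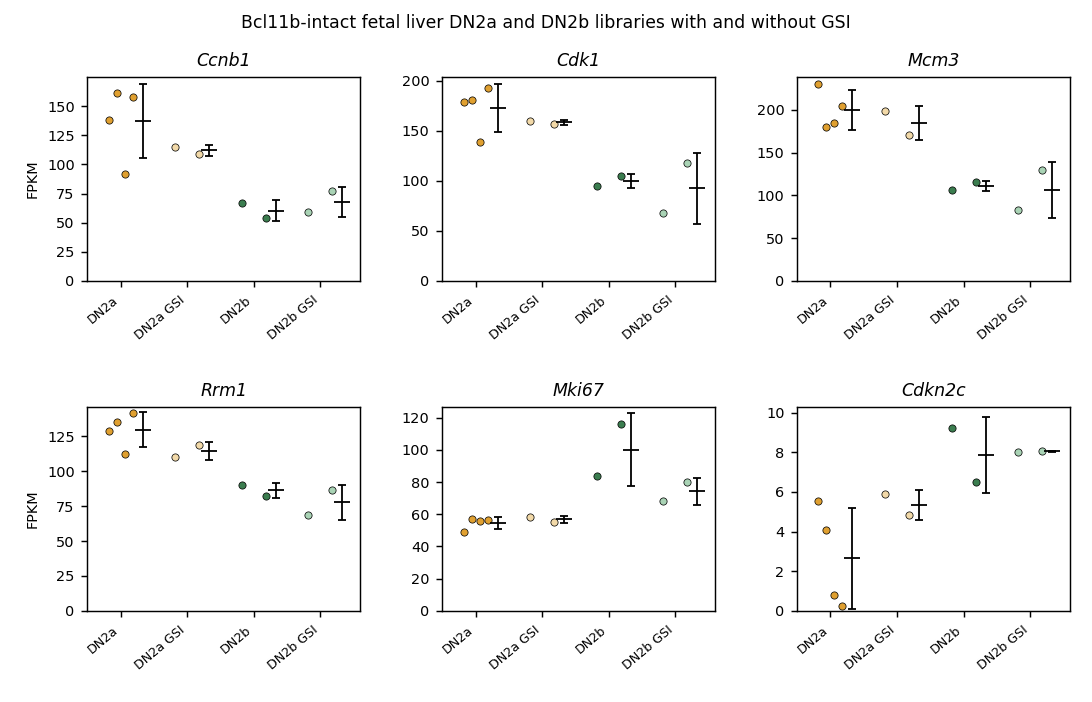
FPKM (vertical axes) of the plotted genes in fetal liver DN2a and DN2b libraries, untreated or with GSI (horizontal axis), 1 point per library with mean and SD. Untreated DN2a libraries lie above DN2b for Ccnb1 and below it for Mki67.

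GSI for 12 hours gave no call. With stage in the model, 0 of the 38 genes passed in either direction, as did 0% of 12783 genes (limma). In this fit, which does not use the date-matched pairs, 0 of the 38 had an unadjusted p under 0.05, against 297 of all genes. With the pairs as a block no call changed. The median was -0.10, against -0.02 over all genes, with 9 of 10 DNA replication genes below 0. The mean log2 level of these 10 was 6.26 with GSI and 6.65 without in the DN2b pair titled DN3, and 6.76 and 6.64 in the other. In DN2a it was 7.08 and 7.24, and 6.99 and 7.07. Immediate early and stress genes summed to 322 FPKM in the GSI library titled DN3, the highest of the 47, and 95.4 in its untreated pair. Their part was not tested. The largest differences were those of the inhibitor gene Cdkn1a (0.30, limma, adjusted p = 1.00), and Cdc6 (-0.22, limma, adjusted p = 1.00). Cdkn1a stood at 69.6 and 50.6 FPKM in DN2a with GSI and 43.8 and 31.7 without, and at 20.9 and 35.5 in DN2b with GSI and 23.5 and 34.7 without. It was higher with GSI in 3 of 4 pairs. The untreated libraries are shared with the stage comparison.

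Stroma and IL-7 were compared in the same 25 libraries as genotype. On DL4 against DL1, 0 of the 38 genes passed (limma), against 0.0155% higher and 0.271% lower (0.286% in all) of 12924 genes. Of the 38, 1 had an unadjusted p under 0.05, against 721 of all genes. That gene, Cdkn2c, ranged from 2.25 to 7.11 FPKM (median 4.05) in 9 DL4 libraries and from 2.68 to 18.2 FPKM (median 6.64) in 16 DL1 libraries (-0.56, limma, adjusted p = 0.613), and its difference turned to 0.17 with title year in the model. Cdkn1b (-0.20, limma, adjusted p = 0.999) turned to 0.057. All 10 DNA replication genes had a positive difference (median 0.16), none of which passed.

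Under reduced IL-7, 0 of the 38 genes passed (limma), against 0.0151% higher and 0.0151% lower (0.0301% in all) of 13279 genes. Of the 38, 5 had an unadjusted p under 0.05, all of them lower mitosis genes. At that p, 685 of all 13279 genes were lower and 314 higher. The 12 mitosis genes were all below 0 (median -0.19). The 5 markers of double positive thymocytes were also all lower at an unadjusted p under 0.05 (median -2.02, 0 called by limma). They summed to 0.500 to 97.8 FPKM under reduced and 27.2 to 266 under standard IL-7. At 0.500 all 5 stand at the lowest value of the data, 0.1 FPKM. Their part was not tested. Top2a ranged from 128 to 205 FPKM (median 162) in 7 reduced IL-7 libraries and from 137 to 329 FPKM (median 255) in 18 others (-0.53, limma, adjusted p = 0.0990). It passed without control DL1 replicate 3 (limma, adjusted p = 0.0405). Mki67 ranged from 26.5 to 80.0 FPKM (median 57.0) and from 35.0 to 117 FPKM (median 76.4) in the same groups (-0.49, limma, adjusted p = 0.565). Of the reduced IL-7 libraries 6 are of the earliest title year, which has no standard IL-7 library, so year and IL-7 can hardly be told apart. In the 1 knockout pair of a shared date, 0 of the 38 genes were 2-fold higher on FPKM + 1 and 0 lower, against 1.15% and 0.589% of 13064 genes. Within that pair the mitosis genes ran the other way: 9 of 12 were higher under reduced IL-7 (median 0.09), Aurka by 0.29, Ccnb1 by 0.22 and Top2a by 0.03, while Mki67 differed by -0.24.

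Later cultures had lower levels of most of the 38 genes, but none passed. In DL1 cultures of the latest title year, 6 libraries of day 12 were compared with 7 of days 9 to 10, with genotype in the model. Titles give DN2, DN2a or DN2b to the earlier libraries and DN2 or DN2b to day 12. Day was therefore not fully separate from sorted stage. Differences were below 0 for 34 of the 38, including 10 of 10 DNA replication genes, and the median was -0.28, against 0.08 over all genes. With limma, 0 of the 38 were called, as were 0% of 12710 genes. Without adjustment, 12 were lower and 1 higher at p under 0.05 (limma), against 887 and 1763 of all 12710 genes. Cdkn1a ranged from 23.6 to 42.5 FPKM (median 27.4) on day 12 and from 39.8 to 72.4 FPKM (median 49.8) on days 9 to 10 (-0.78, limma, adjusted p = 0.115). It passed without control DL1 replicate 8 (limma, adjusted p = 0.0303). Ccnd3 ranged from 94.9 to 215 FPKM (median 177) on day 12 and from 199 to 347 FPKM (median 266) earlier (-0.71, limma, adjusted p = 0.134). Both pairs of ranges overlapped at their edges.

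A control and a knockout culture were sampled on days 9, 10 and 12. Cdkn1a stood at 49.8, 42.9 and 26.7 FPKM in the control and 72.4, 58.3 and 36.6 in the knockout. Mcm5 stood at 208, 143 and 132 FPKM and at 184, 172 and 144. Both genes went down over time in both cultures. From day 9 to day 12, 35 of the 38 genes were lower in the control culture (median -0.52) and 21 in the knockout culture (median -0.08). A second knockout pair, numbered 1 in its titles, is also dated 3 days apart, titled DN2 at day 9 and DN2b at day 12. There 30 of the 38 were lower (median -0.38), including 10 of 10 DNA replication genes, against 5 of 10 in the first knockout culture. Mcm5 went from 181 to 124 FPKM in that pair, Pcna, the sliding clamp gene, from 368 to 244, and Cdkn1a from 69.0 to 25.7. The 2 knockout series thus differed in how many genes were lower, and they also differed in title stage, as the first was DN2 throughout. Over all genes the medians were 0.00, 0.10 and 0.23 in the 3 series, in the same order. Over all 13 libraries, 0 of the 38 had a called interaction of day with genotype (limma), as did 0 of 14184 genes. At an unadjusted p under 0.05 there was 1, against 332 of all genes. OP9 stroma markers summed to 5.82 to 45.0 FPKM on day 12 and 19.3 to 69.6 earlier, and their part was not tested.

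Mitosis genes were lower in the 3 cultures given a second retrovirus than in the 6 other day 12 cultures on DL1. This comparison was added after the low values were seen, so its calls are no independent support. With genotype in the model, 10 of the 38 genes were lower and 2 higher (limma, adjusted p under 0.05), against 1.5% and 0.753% of 13539 genes. The 10 lower genes were all among the 12 mitosis genes (median -1.16). Of the 10 DNA replication genes 0 were called (limma, Mcm7 and Mcm10 at an unadjusted p under 0.05), with a median of -0.14. At that unadjusted p, 1904 of all 13539 genes were lower and 704 higher. For 8 mitosis genes and Cdk1, the 3 vector libraries were below each of the other 44 libraries. The share of all genes with this pattern was not counted.

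Cdc20 stood at 25.8, 16.3 and 23.0 FPKM in the control with empty vector, the knockout with empty vector and the knockout with Bcl11b vector. It stood at 70.7, 77.7 and 96.9 FPKM in the other controls and 83.3, 73.7 and 81.5 in the other knockouts. The groups were far apart, with a difference of -1.84 ± 0.17 (SE, limma, adjusted p = 0.00142). Ccnb2, a B cyclin gene, stood at 36.4, 22.3 and 29.8 FPKM in the same vector libraries, 82.2, 82.9 and 86.1 in controls and 93.0, 82.7 and 82.7 in knockouts (-1.50, limma, adjusted p = 0.00247). Ccnb1 stood at 25.2, 16.6 and 29.4 FPKM, against 62.6, 112 and 66.6 and 89.5, 74.0 and 39.7 (-1.53, limma, adjusted p = 0.0189). For both, all vector libraries were below all others. Among mitotic kinases, Plk1 averaged 21.3 ± 4.65 FPKM (SD, n = 3) against 55.5 ± 7.34 (n = 6), Aurka 15.2 ± 2.44 against 38.5 ± 6.10 and Aurkb 28.9 ± 1.19 against 54.7 ± 11.3. Birc5, which acts with Aurkb, averaged 47.7 ± 9.59 FPKM against 105 ± 17.0, and Bub1b 28.4 ± 6.02 against 67.2 ± 23.9. Mki67 averaged 33.5 ± 5.83 FPKM against 81.4 ± 20.5 and Top2a 129 ± 26.6 against 241 ± 32.5. All 7 passed (limma, adjusted p between 0.00384 and 0.0349).

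The 2 mitosis genes that did not pass were Ccna2 (-0.77, limma, adjusted p = 0.0713) and Bub1 (-0.76, limma, adjusted p = 0.149). Of all uncalled genes Cdkn2c (-0.97, limma, adjusted p = 0.0960) and Cdk1 (-0.86, limma, adjusted p = 0.0564) differed most. Mcm6 stood at 177, 181 and 171 FPKM in the vector libraries, 193, 194 and 183 in controls and 221, 171 and 98.8 in knockouts, with overlapping ranges. The 2 higher genes were Cdkn1a and Ccnd2. Cdkn1a stood at 42.5, 86.1 and 81.6 FPKM in the vector libraries, 26.7, 23.6 and 42.5 in controls and 36.6, 25.7 and 28.2 in knockouts (1.09, limma, adjusted p = 0.0413). Both knockouts with a vector were high, while the control with empty vector was within the range of the others. Ccnd2 stood at 51.9, 69.2 and 69.8 FPKM, against 29.7, 40.1 and 42.3 and 38.5, 25.1 and 29.0, with no overlap (0.90, limma, adjusted p = 0.0424).

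Single pairs of 1 title date reuse libraries of this fit, so they are no second observation, and they have no test. With empty vector against none, 11 of the 38 genes were 2-fold lower on FPKM + 1 and 0 higher in controls, against 7.52% and 1.86% of 13635 genes. In knockouts 9 were lower and 2 higher, against 7.06% and 3.57% of 13986 genes. The lower genes were mitosis genes, with Cdkn2c in both pairs and Cdk6 in controls. Medians of the mitosis genes were -1.15 in controls and -1.38 in knockouts, against -0.31 and -0.15 over all genes. The Bcl11b vector library, with 105 FPKM of Bcl11b, differed from the empty vector knockout (24.7 FPKM) by 2-fold in 0 of the 38, against 1.87% higher and 1.64% lower of 13250 genes. Below 2-fold, all 12 mitosis genes were higher with the Bcl11b vector (median 0.39, against 0.007 over all genes). That pair is 1 library of each, and its empty vector knockout held the lowest value of 14 of the 38 genes. With the 5 libraries of the vectors' own title date alone, 0 of the 38 passed (limma), and Cdc20 differed by -1.74 (limma, adjusted p = 0.0766). The lower count was 3 without the knockout with empty vector and 5 without the control with empty vector. The higher count fell to 0 without either vector-transduced knockout, control DL1 replicate 6, or knockout DL1 replicate 7 or 8. It fell to 1 without the control with empty vector, control DL1 replicate 7 or knockout DL1 replicate 5, and it was 0 with equal FPKM totals. The vector, the added handling and the sort cannot be told apart.

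**Figure D4:**
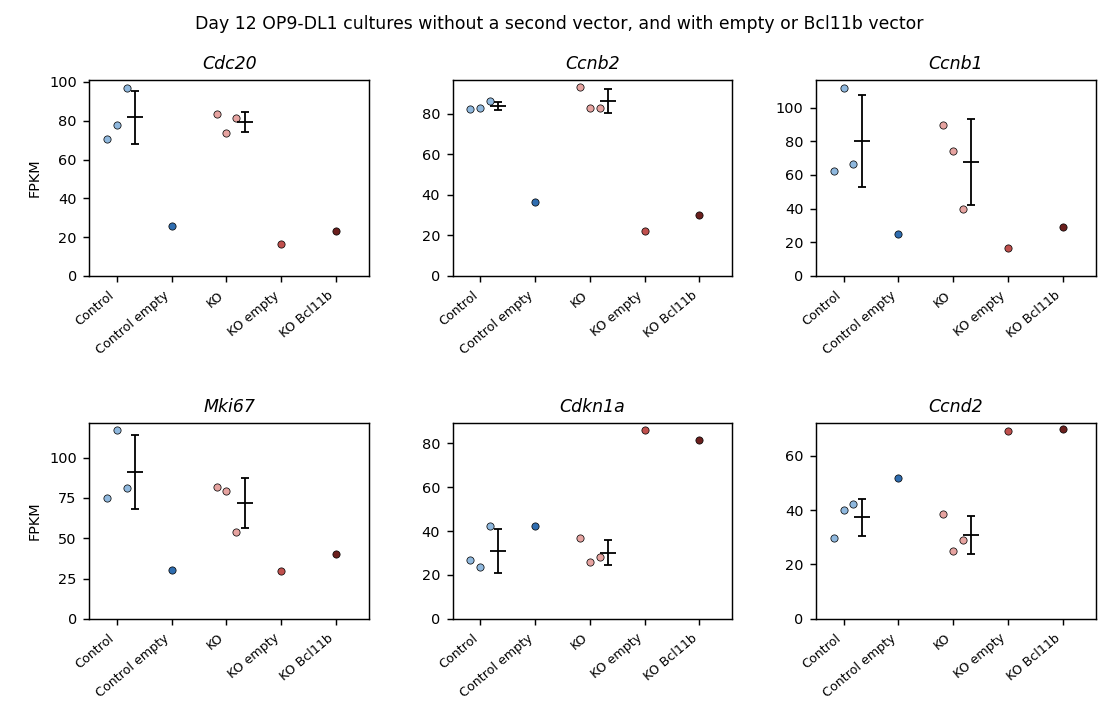
FPKM (vertical axes) of the plotted genes in day 12 DL1 cultures (horizontal axis: control, knockout, and the single libraries with empty or Bcl11b vector), 1 point per library. All 3 vector libraries lie below the rest for Cdc20, Ccnb2 and Ccnb1, and above the rest for Ccnd2.

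Mitosis genes outside the set moved with them: of 43 tested, 0 rose and 23 fell (median -0.87). The largest were Cenpe, a kinetochore motor gene (mean 7.06 against 21.3 FPKM, limma, adjusted p = 0.00423), and Cenpf (-1.42, limma, adjusted p = 0.00700). Of 40 further replication genes 0 were called (limma, 6 at an unadjusted p under 0.05, median -0.18). Of 29 regulators 1 rose and 4 fell. Ccng1 rose (1.06, limma, adjusted p = 0.00700), and Ccng2 (-1.60, limma, adjusted p = 0.00878) and Ccnf (-1.37, limma, adjusted p = 0.00423) fell most.

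Thymic DN3 cells taken directly from mice had more Cdk6 than fetal liver control cultures, and less of 2 cyclins and of the mitotic kinases Cdk1 and Plk1. Of the 38 genes 1 was higher and 4 lower ex vivo (limma, adjusted p under 0.05), against 14.2% and 6.59% of 13906 genes. At an unadjusted p under 0.05, 3 were higher and 10 lower, against 3566 and 1501 of 13906 genes. The median was -0.11, against 0.17 over all genes. With equal FPKM totals 1 gene was lower, and the medians moved to 0.04 and 0.30. With quantile normalization 7 were lower, and the medians were -0.19 and 0.02. Origin, stage and culture cannot be told apart here, and the 11 controls also serve the genotype comparison.

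Cdk6 stood at 100.0, 169 and 77.3 FPKM in the LckCre, floxed CreERT2 and CreERT2 libraries and at 13.6 to 84.9 FPKM (median 39.1) in the cultures, overlapping, with a difference of 1.37 ± 0.40 (SE, limma, adjusted p = 0.0223). Plk1 stood at 38.9, 30.1 and 38.4 FPKM ex vivo and 49.1 to 78.7 FPKM (median 66.3) in culture, with no overlap (-0.81, limma, adjusted p = 9.0e-04). Cdk1 stood at 93.6, 64.3 and 77.6 FPKM ex vivo and 85.2 to 148 FPKM (median 122) in culture (-0.58, limma, adjusted p = 0.0406). The Cdk1 ranges overlapped. Ccnb2 stood at 66.8, 50.6 and 61.7 FPKM and 58.8 to 120.0 FPKM (median 85.8) (-0.55, limma, adjusted p = 0.0373), and Ccnd1 at 0.743, 0.331 and 0.414 FPKM and 0.598 to 1.94 FPKM (median 1.28) (-0.62, limma, adjusted p = 0.0333). Ccnd1 was near 1 FPKM or below it throughout the ex vivo libraries. Of the uncalled genes Ccne2 (0.80, limma, adjusted p = 0.0561) and Cdkn2c (0.66, limma, adjusted p = 0.172) differed most. The higher count was 0 without the LckCre or the floxed library, 2 without control DL1 replicate 1 or 4, and 3 without the CreERT2 library or control DL1 replicate 7. The lower count was 1 without the floxed library and 2 without control DL4 replicate 2 or control DL1 replicate 4 or 8.

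Further mitosis genes gave 0 higher and 3 lower calls of 43, a lower share of 6.98%, led by Cks1b (-0.99, limma, adjusted p = 7.4e-04) and Cenpa (-0.73, limma, adjusted p = 0.00282). Replication genes gave 0 higher and 3 lower of 40 (7.5% lower), led by Gins2 (-0.84, limma, adjusted p = 0.0197) and Cdc45 (-0.49, limma, adjusted p = 0.0294). Both lower shares were near the 6.59% of all genes. Regulators gave 3 higher and 3 lower of 29, led by the inhibitor gene Cdkn2d (-1.43, limma, adjusted p = 2.6e-04) among the lower and Rbl1, a relative of the retinoblastoma gene (0.70, limma, adjusted p = 0.0379), among the higher. Immediate early and stress genes summed to 222 to 289 FPKM ex vivo and 80.7 to 163 in culture. OP9 stroma markers summed to 2.54 to 9.20 FPKM ex vivo and 8.54 to 66.0 in culture, with 4 of 5 tested called lower ex vivo (median -1.70). Double positive markers summed to 0.500 (all 5 at the lowest value, 0.1) to 92.2 FPKM ex vivo and 1.66 to 266 in culture, with 1 of 5 called lower. The part of these markers in the differences was not tested.

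Against 2 cultured thymic DN3 controls, the same 3 ex vivo libraries gave 0 calls among 37 tested genes (limma), against 0.0151% higher and 0.0681% lower (0.0832% in all) of 13215 genes. Without adjustment, 2 were higher and 8 lower at p under 0.05 (limma), against 1401 and 538 of all genes. Ccnd1 was below the filter. Differences were below 0 for 11 of 12 mitosis genes (median -0.63), and the median of all tested here was -0.35, against 0.21 over all genes. Ccnd2 stood at 53.1, 64.8 and 38.7 FPKM ex vivo and 24.8 and 21.9 in culture (1.10, limma, adjusted p = 0.145). Cdk6 stood at 43.8 and 61.5 FPKM in culture, below its 3 ex vivo values (1.06, limma, adjusted p = 0.238). Neither gene's groups overlapped. OP9 stroma markers summed to 2.54 to 9.20 FPKM ex vivo and 19.6 to 36.6 in these cultures, and immediate early and stress genes to 222 to 289 and 65.3 to 104, and their part was not tested.

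**Figure D5:**
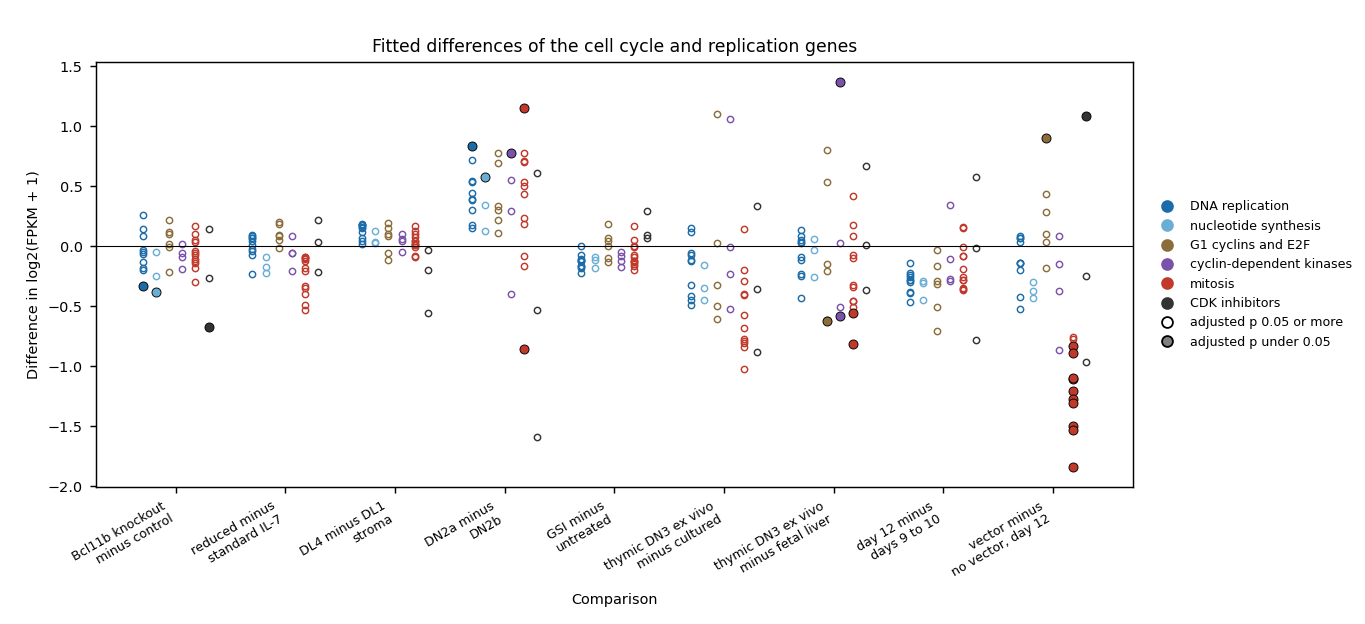
Difference in log2(FPKM + 1) (vertical axis) of each of the 38 genes, 1 point each, in each fitted comparison (horizontal axis). The mitosis genes stand low in the vector comparison, where 10 of 12 passed.

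Deletion at the DN3 stage was represented by 1 cultured thymic library, with no test. Against the control of the same date, 2 of the 38 genes were 2-fold higher on FPKM + 1 and 7 lower, against 10.4% and 4.69% of 13654 genes, and the median was -0.66, against 0.10 over all genes. Cdkn1a stood at 162 FPKM in the knockout, the highest of the 47 libraries, and 26.2 and 22.7 in the controls of days 3 and 4. Ccnd2 stood at 64.5 FPKM and 24.8 and 21.9. Both genes were above both controls. Ccnb1 stood at 52.8 FPKM in the knockout and 89.6 and 138 in the controls, Plk1 at 29.0 and 54.7 and 72.6, and Tyms at 51.8 and 94.7 and 112. Birc5 stood at 63.3 FPKM and 142 and 141. These 4 were below both controls, and Cdt1, Aurkb and Mcm10 were the other lower genes. Cdkn2c stood at 24.5 FPKM in the knockout, between the controls at 20.7 and 34.0.

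The other single pairs, also without a test, showed few differences of 2-fold. The bone marrow library labelled knockout differed from its control in 0 of the 38 genes (1.46% higher and 1.39% lower of 13437 genes), with Cdkn1a at 30.6 and 54.4 FPKM. The LckCre DN2 knockout differed from the LckCre DN3 control, a different stage, in 0 (4.73% and 3.56% of 13553 genes), with Cdk6 at 49.7 and 100.0 FPKM. With empty vector in both, the knockout was 2-fold higher than the control in 1 gene, Cdkn1a, and lower in 0 (5.07% and 3.19% of 13443 genes). Below 2-fold, all 12 mitosis genes were lower in that 1 knockout library (median -0.52, against 0.17 over all genes). In the bone marrow and LckCre pairs, 10 of the 12 were higher in the knockout. The DN2a library of day 4.5 differed from that of day 8.5 in 0 (0.462% and 1.91% of 12547 genes), with 31 of the 38 genes higher and a median of 0.31.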

How the data were processed

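Polyadenylated RNA was fragmented, primed at random and sequenced, per the labels' protocols, and no step of the protocol marks strand. The authors deposited 1 table of FPKM values, named as adjusted with ComBat per the file headers, in which the lowest value is 0.1. The submitters' processing notes name mouse build mm9. Neither an aligner nor a quantifier is stated there, nor which batches ComBat received (not given in the sources used here), and such an adjustment can shrink or widen differences between groups that follow a batch. Depth is unknown from FPKM, so no counting interval is given. A further 16 columns that match no label were not used.

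Differences were tested on log2(FPKM + 1) with limma 3.58.1 (R 4.3.3, mean-variance trend) over all genes that reached 1 FPKM in at least as many libraries as the smaller group holds, with Benjamini-Hochberg adjustment and a threshold of 0.05. Such differences understate changes of genes near 1 FPKM. Of the 38 genes, 36 were at 1 FPKM or more in all 47 libraries, and Ccnd1 and Cdkn2c were not. Single libraries were compared by a 2-fold difference on FPKM + 1, with no test. The scripts were tested on simulated data. Libraries were grouped by the labels, and paired where title dates, stroma and IL-7 matched. Deviations of paired libraries from their group means correlated at 0.657 and 0.714 for GSI and between -0.0517 and 0.528 for the 9 knockout pairs. Those of DN2a with DN2b correlated at 0.0973. Values are described for all 38 genes by rule: those called, the 2 largest differences not called, and 13 genes described throughout. The members and lists were chosen with earlier results of these data known. Alternatives were a pseudocount of 0.1, no filter, equal FPKM totals, quantile normalization, robust empirical Bayes, a shared spread, title year, standard IL-7 alone, blocks, pairs titled with the same stage (added after the values were seen) and leaving out each library.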

Additional observations from a re-analysis of the deposited data

Results flagged for a closer look

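In groups of 4 to 10 libraries, a library was singled out where its gap to the next was large for the group's range (Dixon's test), which chance gives in about 1 of 20 groups. This held in 9 of 152 combinations of gene and group. Knockout DL1 replicate 8 was lowest of 8 for the helicase genes Mcm2, at 50.4 FPKM with the next at 93.5, and Mcm6, at 98.8 with the next at 171. DN2a replicate 1 was highest of 4 for Mcm2 (189 FPKM, next 135), Cdt1 (75.4, next 57.9) and E2f1 (30.2, next 22.8), and lowest for Mki67 (48.7, next 55.7). Knockout DL4 replicate 2 was highest of 6 for Mcm3 (209 FPKM, next 194), and knockout DL4 replicate 6 for Cdt1 (73.6, next 54.2). Control DL1 replicate 7 was highest of 8 for Bub1b (113 FPKM, next 76.8). No explanation was tested.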

How the results depend on the processing

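The counts of called genes among the 38 depended on scaling and on single libraries, and unless a value shows it, the cause was not tested. With equal FPKM totals, 0 genes were lower in knockouts, 1 was lower ex vivo than in fetal liver cultures and 0 were higher with a vector. Quantile normalization gave 2 higher in DN2a and 7 lower ex vivo than in fetal liver cultures. A spread shared over 5 groups gave 0 lower in DN2a, 1 higher and 1 lower ex vivo than in cultured DN3, and 3 higher ex vivo than in fetal liver cultures. With no filter, 0 were higher and 6 lower with a vector, and with 1 title date 0 and 0. Standard IL-7 alone left 1 lower in knockouts, and the 4 date-matched pairs titled with the same stage left 0. With title year, the DL4 differences of Cdkn2c and Cdkn1b turned to 0.17 and 0.057.

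Leaving out 1 library gave 0 to 1 higher and 2 to 3 lower in knockouts, 0 to 1 lower with reduced IL-7, 0 to 5 higher and 0 to 1 lower in DN2a, and 0 to 1 lower on day 12. It gave 0 to 3 higher and 1 to 6 lower ex vivo against fetal liver cultures, and 0 to 2 higher and 3 to 12 lower with a vector. Counts for DL4, GSI and ex vivo against cultured DN3 stayed at 0.

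With date-matched pairs as a replicate block, 2 genes were lower in knockouts. In DN2a, where the dates match only in part, 1 was higher and 0 lower. The block changed no call for GSI. Scaling moved the median of all genes by up to 0.20, in the comparison of ex vivo with cultured DN3 under equal totals. Sequencing depth is unknown, so it sets no stated limit.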
